A study of Mus musculus with 8 samples.

Results

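The genes described here encode SR splicing factors, the kinases that phosphorylate them and the RNA-binding proteins that work beside them, in mouse brain. They were picked by gene symbol from the deposited count table: the Srsf, Sfrs, Luc7l, Clk, cyclin L, Tra2, Srpk, Srrm and numbered Rbm genes, with pseudogene names left out. The rule found 66 entries with 65 symbols among the 17613 genes of the table, and all 66 passed the filter on low counts that left 15902 genes for testing. Rbm15b stands in the table under a pair of gene identifiers. The family was selected on the KO-against-WT difference measured in these same libraries, so its counts and medians below are a description and support no statement about the family as a whole.

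The series sequenced polyadenylated brain RNA of C57BL/6 mice: 4 libraries carry the label wild type (WT), and the other 4 carry the label Uhrf2 knockout (KO). UHRF2 is a nuclear protein that binds modified cytosine and histones and carries a ubiquitin ligase domain. The labels name the strain, the tissue and the genotype, and give no age, sex, treatment, knockout allele or Cre driver. They do not say whether each library came from a separate animal, so the p-values measure the spread between libraries, which may be technical.

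SR proteins carry RNA-recognition domains and a tail rich in arginine and serine, bind exonic enhancers, and recruit the spliceosome to nearby splice sites. SRPK kinases phosphorylate the tail and send the proteins into the nucleus, and CLK kinases release them from nuclear speckles, where they are stored. Many of these genes limit their own output by splicing in a poison exon or keeping an intron, which leaves a transcript that is destroyed by nonsense-mediated decay or held in the nucleus. In brain, SRRM4 and its relatives direct the splicing of neuronal microexons.

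Library totals ran from 11891350 to 19773921 counts, so 3 counts correspond to 0.152 to 0.252 CPM, the counts scaled to library size. Uhrf2 itself (chr19:30030513-30093722, GRCm38) went against its label. It measured 58.0, 47.7, 57.2 and 58.9 CPM in the WT libraries and 86.4, 88.6, 88.4 and 91.8 CPM in those labelled KO, a log2 fold change of 0.68 (SE 0.06, edgeR quasi-likelihood test, Benjamini-Hochberg adjusted p = 5.45e-06; exact two-sided permutation test over 70 splits, p = 0.0286, the smallest it can give). Counts per gene cannot show whether an exon is missing. The groups are therefore called by their labels, and every direction below is that of the libraries labelled KO against those labelled WT.

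Of the 66 family members, 6 were lower in the libraries labelled KO at an adjusted p under 0.05, 0 were higher, and 60 did not pass (edgeR quasi-likelihood test, adjusted over all 15902 genes). Across all tested genes 0.289% were called lower and 1.14% higher. The 6 were Sfrs18, Srsf2, Rbm25, Ccnl1, Srsf5 and Rbm33, with log2 fold changes from -0.24 to -0.19. In whole tissue, fewer cells of a type and less RNA per cell cannot be told apart. Log2 fold changes were negative in 49 of the 66 members, at a median of -0.08, against 52.0% negative and a median of -0.00 over all tested genes. At an unadjusted p under 0.05, 21 members passed, and 20 of these were lower. Over all tested genes 12.6% passed at that level, and 6.16% passed and were lower. In 12 members every KO library lay below every WT library, an arrangement found in 3.4% of all tested genes, and Rbm18, chosen here after its values were seen, was the 1 member in which every KO library lay above, against 4.28% of all tested genes.

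**Figure D1:**
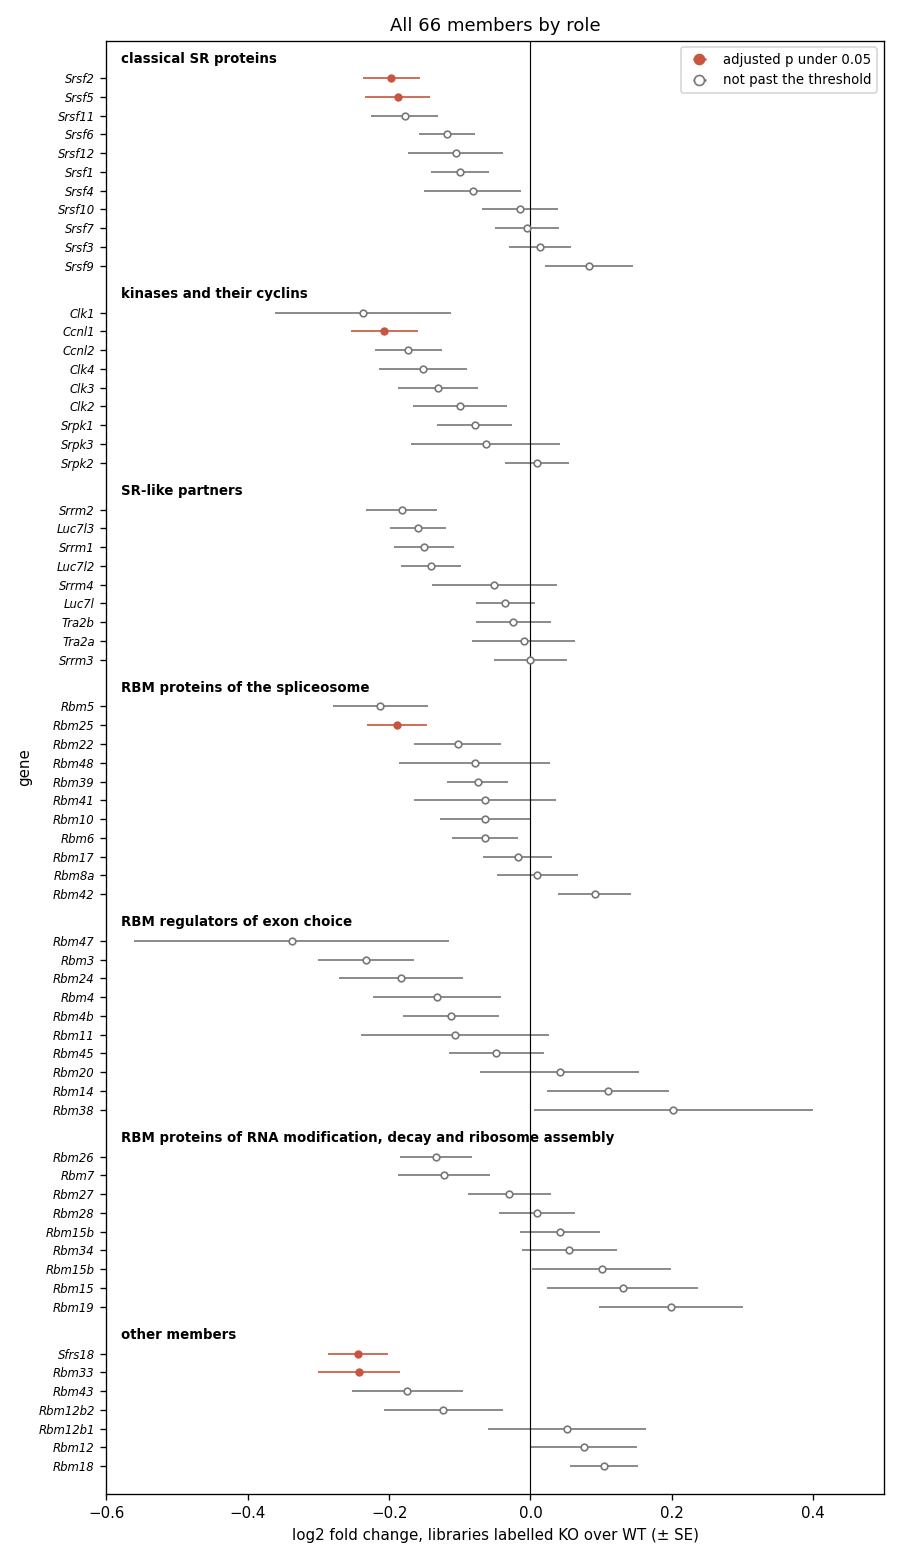
Log2 fold change of the libraries labelled KO over WT for all 66 members, grouped by role, with bars of ± SE; filled points passed an adjusted p of 0.05. The 6 filled points lie between -0.24 and -0.19, and most open points lie on the same side of 0. The exceptions are the members of RNA modification, decay and ribosome assembly and the open points of the members outside the role groups.

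Promoter sequence is given for 3 members that fell and for 1 that stayed near 0, so that the starts of members on either side can be read beside their values. Each line holds the 250 bases before the RefSeq start on the GRCm38.p6 build, read 5′ to 3′ on the strand of the gene. Capitals mark matches on either strand to the ETS motif CCGGAAG, the GC box GGGCGG, the CCAAT box, the cyclic AMP response element (CRE) TGACGTCA, its first 5 letters TGACG, and the TATA box TATAAA. The full CRE contains the shorter TGACG, and matches may overlap.
Srsf2: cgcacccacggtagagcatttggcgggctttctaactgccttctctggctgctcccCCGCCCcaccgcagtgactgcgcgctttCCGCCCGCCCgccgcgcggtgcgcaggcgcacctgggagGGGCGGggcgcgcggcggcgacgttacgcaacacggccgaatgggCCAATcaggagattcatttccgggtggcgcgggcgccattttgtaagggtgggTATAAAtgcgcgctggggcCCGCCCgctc
Ccnl1: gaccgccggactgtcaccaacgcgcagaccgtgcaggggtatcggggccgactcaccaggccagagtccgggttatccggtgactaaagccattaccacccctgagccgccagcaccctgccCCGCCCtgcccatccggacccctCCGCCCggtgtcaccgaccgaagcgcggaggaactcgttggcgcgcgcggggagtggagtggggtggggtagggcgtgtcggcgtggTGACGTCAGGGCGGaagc
Srsf5: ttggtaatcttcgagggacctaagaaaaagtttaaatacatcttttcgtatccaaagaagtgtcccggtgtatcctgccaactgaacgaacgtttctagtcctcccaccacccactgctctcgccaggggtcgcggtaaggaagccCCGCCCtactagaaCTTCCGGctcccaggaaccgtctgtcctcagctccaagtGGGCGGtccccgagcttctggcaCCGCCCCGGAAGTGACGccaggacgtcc
Srsf7: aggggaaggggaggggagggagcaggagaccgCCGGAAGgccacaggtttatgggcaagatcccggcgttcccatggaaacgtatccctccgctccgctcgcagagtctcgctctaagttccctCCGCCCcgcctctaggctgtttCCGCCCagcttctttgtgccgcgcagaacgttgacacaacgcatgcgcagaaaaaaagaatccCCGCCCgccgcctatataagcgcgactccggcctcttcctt
These windows are chr11:116853095-116853344 on the minus strand for Srsf2, chr3:65958250-65958499 on the minus strand for Ccnl1, chr12:80945249-80945498 on the plus strand for Srsf5 and chr17:80207306-80207555 on the minus strand for Srsf7.

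Srsf2 had 5 GC boxes, a CCAAT box and a TATA box, Ccnl1 had 3 GC boxes and a full CRE directly beside the last of them, and Srsf5 had 3 GC boxes and 2 ETS motifs. Srsf7, which measured nearly the same in both groups, had 3 GC boxes and 1 ETS motif. CpG dinucleotides numbered 33 in Srsf2, 28 in Ccnl1, 17 in Srsf5 and 23 in Srsf7, against a median of 15 in the promoters of tested genes. Of the 66 members, 55 matched the promoter table by symbol, and 45 of those entries lay within 500 bases of the GENCODE M21 start of the gene and were searched. The promoters of tested genes were taken by symbol alone, without that distance limit and without removing repeated entries of a gene. The shares and the CpG median therefore come from unlike sets, and the part of this difference was not tested. The GC box was present in 4 of the 4 searched members that fell and in 23 of the 41 that did not pass. Of the 14379 promoters of tested genes, 55.1% had it. In the same order of members, the ETS motif was in 1 and 8, and the CCAAT box in 1 and 17. TGACG was in 2 and 19, the full CRE in 1 and 1, and the TATA box in 1 and 5. Sfrs18 and Rbm25 fell but were not among the 4, and no difference between the 4 and the 41 was tested. The ETS motif was in 9 of the 45 searched members and in 11.7% of promoters of tested genes. TGACG was in 46.7% of the searched members and in 25.1% of promoters of tested genes. The full CRE was in 2 of the 45, or 4.44%, against 2.46%. These are matches of letters and say nothing about binding.

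Among the classical SR proteins, 2 of 11 fell, 0 rose and 9 did not pass. Srsf2 (chr11:116849901-116853094), which also binds enhancers at alternative exons and takes part in pause release of RNA polymerase II, measured 191, 193, 192 and 188 CPM in the WT libraries and 160, 176, 165 and 166 CPM in those labelled KO. All 4 KO libraries were below all 4 WT libraries, and the WT libraries lay within a narrow band. The means were 191 ± 2.02 and 167 ± 6.90 CPM (SD, n = 4), a log2 fold change of -0.20 (SE 0.04, edgeR adjusted p = 0.0149). The call was lost without WT replicate 3 (edgeR adjusted p = 0.07), KO replicate 3 (0.0838) or KO replicate 4 (0.0533), at log2 fold changes of -0.19 each. Srsf2 overlaps Mfsd11 and Mettl23 on the opposite strand, both short of the threshold, at -0.06 (SE 0.06) for Mfsd11 and -0.20 (SE 0.10) for Mettl23. Whether the counting used strand is not stated in these sources, so reads from the overlap cannot be told apart.

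Srsf5 (chr12:80945504-80950507), an SR protein whose transcript responds to growth signals, measured 339, 338, 347 and 321 CPM in the WT libraries and 269, 313, 306 and 292 CPM in those labelled KO. The groups did not overlap, with KO replicate 1 the lowest library. Its means were 336 ± 11.1 and 295 ± 19.3 CPM, a log2 fold change of -0.19 (SE 0.05, edgeR adjusted p = 0.0471). That call sat just under the threshold. It held without WT replicate 4 and without KO replicate 2 and was lost when any of the other 6 libraries was left out, with edgeR adjusted p from 0.0966 without KO replicate 3 to 0.187 without WT replicate 3. Without KO replicate 1 the log2 fold change was -0.15 (adjusted p = 0.126). The call was also lost with limma-voom (adjusted p = 0.0611).

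The remaining SR proteins ranged from values close to those of Srsf2 to no measurable difference. Srsf11, a speckle protein, went from 235 ± 12.8 to 208 ± 10.2 CPM, a log2 fold change of -0.18 (SE 0.05, edgeR adjusted p = 0.071), with overlapping groups. Srsf6, which regulates tau exon choice among others, went from 166 ± 2.61 to 153 ± 4.64 CPM, with all KO libraries below all WT libraries (log2 fold change -0.12, SE 0.04, edgeR adjusted p = 0.184). Srsf1, the founding family member, measured 302 ± 9.74 and 282 ± 12.2 CPM at a log2 fold change of -0.10 (SE 0.04). Srsf12 and Srsf4, both low in these libraries, stood at -0.11 (SE 0.07) and -0.08 (SE 0.07). Srsf9 was on the other side of 0, at 0.08 (SE 0.06). None of these passed the threshold.

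Srsf3, Srsf7 and Srsf10 stayed near 0. Srsf3, which also adapts messenger RNA for export, measured 123, 127, 130 and 132 CPM in the WT libraries and 124, 130, 137 and 127 CPM in those labelled KO. The groups overlapped throughout, and the 95% interval of its difference ran from -5.33% to 7.62%. For Srsf7, an export adaptor as well, the interval ran from -6.73% to 6.47%, and for Srsf10, a splicing repressor when dephosphorylated, from -8.45% to 7.03%. For comparison, the 95% interval of Srsf2 ran from -17.7% to -7.47%, and no test between genes was made. Per kilobase of the longest coding transcript, Srsf5 was the highest SR gene in the WT libraries at 214 CPM per kilobase, followed by Srsf2 at 101, Srsf11 at 75.7, Srsf1 at 56.4, Srsf7 at 51.5 and Srsf3 at 48.9.

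**Figure D2:**
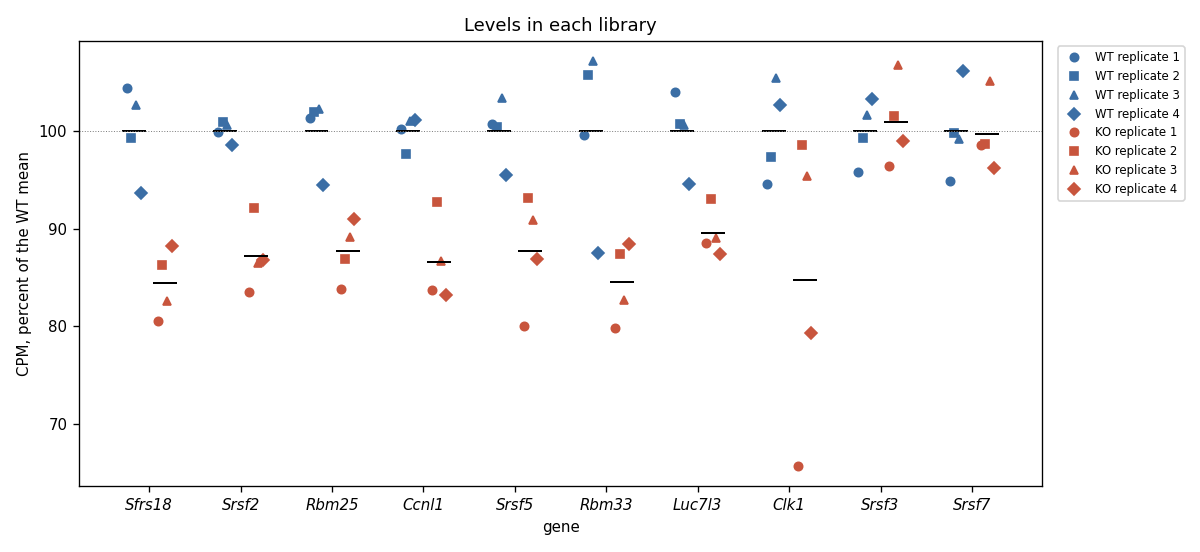
Level of 10 members in each of the 8 libraries, as percent of the mean CPM of the WT libraries; marker shapes give the replicate number and black lines the group means. The KO libraries lie below the WT libraries in Sfrs18, Srsf2, Rbm25, Ccnl1, Srsf5 and Luc7l3, 1 WT library of Rbm33 falls among the KO libraries, Clk1 spreads widely among the KO libraries, and Srsf3 and Srsf7 overlap.

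Among the kinases and their cyclins, 1 of 9 fell, 0 rose and 8 did not pass, and the group median was -0.13 on the log2 scale. Ccnl1 (chr3:65946151-65958249), cyclin L1, a partner of CDK11 kinases that lies in speckles, fell. It measured 72.9, 71.1, 73.5 and 73.6 CPM in the WT libraries and 60.9, 67.5, 63.1 and 60.6 CPM in those labelled KO, so the groups did not overlap. The log2 fold change was -0.21 (SE 0.05, edgeR adjusted p = 0.0326). Among the fits that left out 1 library it passed only without KO replicate 2 (adjusted p = 0.0115). The other 7 gave edgeR adjusted p from 0.0555 without WT replicate 2 to 0.123 without WT replicate 3.

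Its paralog Ccnl2 measured 152, 148, 153 and 156 CPM in the WT libraries and 122, 141, 140 and 137 CPM in those labelled KO, again without overlap. The log2 fold change of -0.17 (SE 0.05) did not pass (edgeR adjusted p = 0.0862). The CLK kinases phosphorylate SR proteins inside the nucleus, and none of the 4 passed. Clk1 measured 172, 177, 192 and 187 CPM in the WT libraries and 120, 179, 174 and 144 CPM in those labelled KO. KO replicates 1 and 4 were below every WT library, while KO replicates 2 and 3 lay among them. The log2 fold change of -0.24 was as large as that of Sfrs18, but its SE was 0.12 (edgeR adjusted p = 0.501), and its 95% interval ran from -30.7% to 3.95%. Without KO replicate 1 it was -0.14 (adjusted p = 0.478).

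On the log2 scale Clk4 differed by -0.15 (SE 0.06), Clk3 by -0.13 (SE 0.06) and Clk2 by -0.10 (SE 0.07), with overlapping groups. Clk4 showed the same lowest library as Clk1, with 82.9 CPM in KO replicate 1 and 104, 96.4 and 89.0 CPM in KO replicates 2, 3 and 4. The SRPK kinases act mainly in the cytoplasm. Srpk1 differed by -0.08 (SE 0.05) and Srpk3 by -0.06 (SE 0.11) on the log2 scale. Srpk2, the most abundant SRPK in these libraries per kilobase, measured 260 ± 14.4 and 262 ± 10.4 CPM, with a 95% interval of -5.73% to 7.42%.

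Among the SR-like partners, 0 of 9 passed and all 9 log2 fold changes were negative, against 52.0% of all tested genes. Some of the 9 lay near 0, and their sign depended on the fit. Of 18 alternative fits, Srrm3 and Tra2a changed sign in 7 each, Tra2b in 4 and Srrm4 in 2. Luc7l3, a U1 small nuclear ribonucleoprotein factor, came closest to the threshold. It measured 328, 318, 317 and 298 CPM in the WT libraries and 279, 293, 281 and 276 CPM in those labelled KO, with no overlap (log2 fold change -0.16, SE 0.04, edgeR adjusted p = 0.0519). It passed without WT replicate 4 (0.0367) or KO replicate 2 (0.0256). Luc7l2, of the same U1-associated family, had a log2 fold change of -0.14 (SE 0.04, edgeR adjusted p = 0.132) with no overlap, whereas Luc7l was at -0.04 (SE 0.04).

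Srrm2, a large scaffold of nuclear speckles, was the most abundant member by counts, at 886 ± 44.2 and 781 ± 60.0 CPM. Its WT libraries measured 851, 889, 948 and 858 CPM and its KO libraries 719, 796, 753 and 858 CPM, so KO replicate 4 lay among the WT libraries. The log2 fold change was -0.18 (SE 0.05, edgeR adjusted p = 0.0976), and it passed without KO replicate 4 (adjusted p = 0.0228). Srrm1, a coactivator that bridges SR proteins and the spliceosome, was at -0.15 (SE 0.04, edgeR adjusted p = 0.102), with no overlap. The neuronal members were close to 0: Srrm4 at -0.05 (SE 0.09) and Srrm3 at -0.00 (SE 0.05, 95% interval -7.22% to 7.78%). Tra2a and Tra2b, which bind GAA-rich exonic enhancers, were at -0.01 (SE 0.07) and -0.02 (SE 0.05).

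Of the 11 RBM proteins of the spliceosome, 1 fell, 0 rose and 10 did not pass. Rbm25 (chr12:83631236-83683123), a U1-associated factor that acts on splice-site choice in apoptosis genes, measured 192, 193, 193 and 179 CPM in the WT libraries and 158, 164, 168 and 172 CPM in those labelled KO. All KO libraries were below the lowest WT library, replicate 4. The log2 fold change was -0.19 (SE 0.04, edgeR adjusted p = 0.0281). The call was lost without WT replicate 1 (edgeR adjusted p = 0.0645), WT replicate 2 (0.0848) or WT replicate 3 (0.123), and likewise without KO replicate 1 (0.0818) or KO replicate 3 (0.0908). An antisense gene, Gm29361, overlaps Rbm25, and another, Gm37305, overlaps Ccnl1. Neither was tested.

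Rbm5, which regulates spliceosome assembly at certain exons, measured 206, 228, 219 and 214 CPM in the WT libraries and 156, 198, 195 and 198 CPM in those labelled KO. The groups did not overlap, and KO replicate 1 stood well below the other 3. Its log2 fold change of -0.21 (SE 0.07) did not pass (edgeR adjusted p = 0.181), and without KO replicate 1 it was -0.14 (adjusted p = 0.19). The other 9 had log2 fold changes from -0.10 in Rbm22 to 0.09 in Rbm42.

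Of the 10 RBM regulators of exon choice, 0 passed. Rbm3, a cold-inducible RNA-binding protein linked to synapse maintenance, measured 56.1, 63.7, 61.8 and 58.5 CPM in the WT libraries and 45.0, 58.3, 52.2 and 48.8 CPM in those labelled KO, a log2 fold change of -0.23 (SE 0.07, edgeR adjusted p = 0.122). Only KO replicate 2 reached into the WT range. Rbm24, known from muscle splicing, was at -0.18 (SE 0.09). Rbm47, at about 2 CPM, had the lowest log2 fold change of the whole family, -0.34, with an SE of 0.22. Rbm14, Rbm4 and Rbm4b are neighbours on chromosome 19. On the log2 scale Rbm14 differed by 0.11 (SE 0.09), Rbm4 by -0.13 (SE 0.09) and Rbm4b by -0.11 (SE 0.07). How reads that fit more than 1 of them were counted is not given, so these values are uncertain.

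The 9 entries of RNA modification, decay and ribosome assembly were the only role group with a median above 0, at 0.04, and 3 of 9 log2 fold changes were negative. None passed. Rbm26, part of the nuclear exosome targeting machinery, measured 86.2 ± 5.88 and 78.4 ± 2.47 CPM, with no overlap (log2 fold change -0.13, SE 0.05, edgeR adjusted p = 0.258). Rbm19, a ribosome assembly factor, was at 0.20 (SE 0.10). The pair of Rbm15b entries, for an adaptor of the RNA methyltransferase complex, were at 0.10 (SE 0.10) and 0.04 (SE 0.06).

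The 7 members outside these groups held the remaining pair that fell. Sfrs18 (chr4:21847583-21876475), called Pnisr in GENCODE M21, encodes a speckle protein with an arginine- and serine-rich region. It measured 424, 403, 416 and 380 CPM in the WT libraries and 327, 350, 335 and 358 CPM in those labelled KO, and the groups did not overlap. Its means of 406 ± 19.3 and 342 ± 14.0 CPM gave a log2 fold change of -0.24 (SE 0.04, edgeR adjusted p = 0.0042). It passed in each of the 18 alternative fits, with edgeR adjusted p of at most 0.0342 when 1 library was left out, and was the only member to pass in all of them.

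Rbm33 (chr5:28317121-28419239), an RNA-binding protein with a part in messenger RNA demethylation, measured 131, 139, 141 and 115 CPM in the WT libraries and 105, 115, 109 and 116 CPM in those labelled KO. WT replicate 4 lay among the KO libraries, so the groups overlapped. The log2 fold change was -0.24 (SE 0.06, edgeR adjusted p = 0.0485), and without WT replicate 4 it was -0.30 (adjusted p = 0.00453). It held without KO replicate 2 as well (0.0493) and was lost without any of the other 6, with edgeR adjusted p from 0.0815 without KO replicate 4 to 0.189 without WT replicate 3. It was also lost with upper-quartile factors (0.0592) and with limma-voom (0.0714). Of the 5 others, Rbm43 and Rbm18 had the lowest p, at -0.17 (SE 0.08) and 0.10 (SE 0.05) on the log2 scale.

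**Figure D3:**
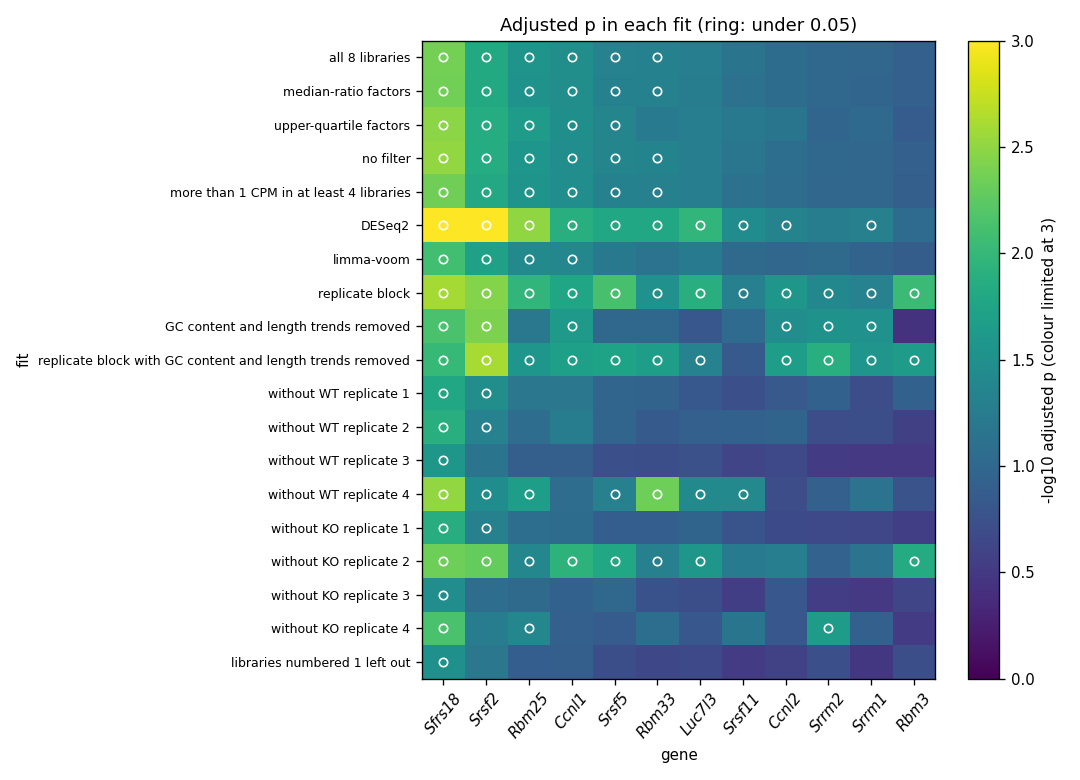
Adjusted p (as -log10, colour) of 12 members in the fit to all 8 libraries and in 18 alternatives; rings mark an adjusted p under 0.05. Sfrs18 is ringed in every fit, Srsf2 in all but 4, and the columns to the right are ringed in fewer fits.

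The number of members called lower depended on single libraries. Leaving out 1 library gave from 1 member (without WT replicate 3, or without KO replicate 3) to 8 (without KO replicate 2), and 0 members were called higher in any of the 19 fits. Without WT replicate 1, WT replicate 2 or KO replicate 1 it was 2, and without KO replicate 4 it was 3. DESeq2 called 10. Removing trends with GC content and transcript length also called 6, but only Ccnl1, Sfrs18 and Srsf2 were among the first 6, with Ccnl2, Srrm1 and Srrm2 in place of Rbm25 (adjusted p = 0.0621), Srsf5 (0.1) and Rbm33 (0.0977).

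The summed level of the 66 members was 6822, 6739, 6925 and 6673 CPM in the WT libraries and 5916, 6360, 6292 and 6341 CPM in those labelled KO. The ratio of the means was 0.917, and the groups did not overlap. KO replicate 1 was the lowest library: 53 of the 66 members lay below their own KO mean there. The median deviation over all 66 members in that library was -0.06 on the log2 scale. With both libraries numbered 1 left out, an alternative added after the data were seen, 45 of 66 log2 fold changes were negative, the median was -0.05, and Sfrs18 alone passed. The part of KO replicate 1 in the single-gene results beyond these values was not tested.

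The fold changes differed with abundance, as the plot of level against change shows. Of the 18 members at an average log2 CPM of 7 or more, 16 were negative and 4 were called lower, at a median of -0.17. All 1844 tested genes at that level had a median of 0.03, with 7 called lower. Of the 26 members between 5 and 7, 20 were negative, at a median of -0.04. Among these, 2 were called lower, beside 19 of the 4997 tested genes in that range. Of the 22 members below 5, 13 were negative (59.1%), at -0.06 with 0 called. The median over all tested genes in these lower ranges was -0.00 and -0.02. Negative values made up 31.7% of all tested genes at 7 or more, 50.6% between 5 and 7, and 57.0% below 5.

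**Figure D4:**
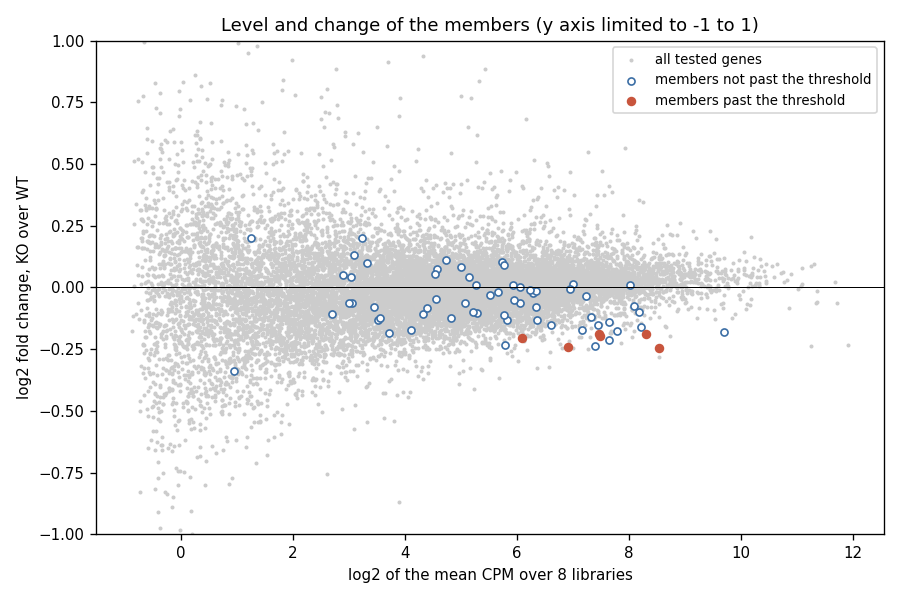
Log2 of the mean CPM over the 8 libraries (horizontal) against the log2 fold change of KO over WT (vertical) for all tested genes (grey) and the 66 members (circles, filled where the adjusted p was under 0.05). The filled points all lie below 0, at a log2 CPM above 5. Members lie on both sides of 0 at each level, with few above 0 at 7 or more. Tested genes beyond 1 or -1 are not shown.

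The members shared features of annotation that the naming rule did not use. GENCODE M21 lists a transcript subject to nonsense-mediated decay for 39 of the 65 annotated members (60.0%), against 24.9% of all tested genes, and a transcript with a retained intron for 49 (75.4%), against 51.9%. All 9 SR-like partners have both kinds. The retained-intron share of all tested genes rose with level. It was 42.2% below an average log2 CPM of 5, 63.8% between 5 and 7 and 66.7% at 7 or more. In the same ranges 12 of 22, 20 of 25 and 17 of 18 annotated members had one. For nonsense-mediated decay the shares were 20.4%, 31.6% and 28.7%, beside 6 of 22, 15 of 25 and 18 of 18 members. The first shares above and the retained-intron classes below were not matched for level. In the 17 members with 4 or more retained-intron transcripts, 15 log2 fold changes were negative, at a median of -0.13. In the 32 with 1 to 3, 24 were negative, at -0.06, and in the 16 with 0, 10 were negative, at -0.06. Each of these classes held 2 members called lower. Over all tested genes, 7 of 1719 were called lower in the class with 4 or more. With 1 to 3 it was 21 of 6423, and with 0 it was 16 of 7535. All tested genes with 4 or more numbered 1719, with a median of -0.02 and 58.8% negative. Those with 0 were 50.5% negative. Clk1 has 7 retained-intron transcripts, Clk4 has 7 and Rbm5 has 13, whereas Sfrs18 and Rbm33 have 0. The counts per gene add all transcripts of a gene together, so the share of such transcripts was not measured. The median GC content of the longest coding transcripts was 46.8% in the members and 50.2% over all tested genes.

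Outside the naming rule, 44 further genes of SR biology were tested, of 46 listed, because Pnisr is the member Sfrs18 and Rsrp1 was not found under that symbol. None passed, 30 of the 44 log2 fold changes were negative, and the median was -0.05. In 8 genes all KO libraries lay below all WT libraries, against 3.4% of all tested genes. This list was chosen with earlier results of these data known, so its counts are a description. At an unadjusted p under 0.05, 10 passed, all of them lower, beside the 6.16% of all tested genes that were lower at that level. Nktr, a cyclophilin with an arginine- and serine-rich tail, had the lowest p, with 219 ± 9.56 and 194 ± 12.6 CPM (log2 fold change -0.18, SE 0.05, edgeR adjusted p = 0.0873). Akap8, a nuclear anchoring protein that also affects splicing, was next, with 120 ± 2.54 and 105 ± 9.16 CPM (-0.19, SE 0.05, edgeR adjusted p = 0.111). Of 18 factors of nonsense-mediated decay, the kinase Smg1 fell, from 341, 317, 340 and 364 CPM in the WT libraries to 283, 313, 300 and 294 CPM in those labelled KO (log2 fold change -0.19, SE 0.05, edgeR adjusted p = 0.0333), and 17 did not pass. Smg1 passed without WT replicate 2 or KO replicate 2 and was lost without any of the other 6 libraries, with edgeR adjusted p from 0.0713 without WT replicate 1 to 0.126 without WT replicate 4. It was also lost with GC and length trends removed (0.0712, and 0.0518 with the replicate block as well) and with limma-voom (0.0501). The median of the list was 0.01.

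Other lists were read in the same libraries. The first held long noncoding RNAs that stay in the nucleus, where the SR proteins work. All 8 tested had negative log2 fold changes and 0 passed, and their sum was 8657 to 9672 CPM in the WT libraries and 6988 to 8910 CPM in those labelled KO, with KO replicate 1 again the lowest. Malat1, a speckle-associated RNA, went from 884 ± 44.1 to 778 ± 52.7 CPM (log2 fold change -0.19, SE 0.05, edgeR adjusted p = 0.0614), and Snhg11 from 2640 ± 128 to 2238 ± 265 CPM (-0.24, SE 0.08, adjusted p = 0.259). Their part in the members' result was not tested.

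Lists of cell type markers were read in the same way. All 8 neuron markers had positive log2 fold changes (summed 6310 to 6775 CPM in WT and 6500 to 7116 CPM in KO libraries), and 0 passed. All 8 striatum markers were positive, and Ppp1r1b and Drd1a rose, at 0.23 (SE 0.05, edgeR adjusted p = 0.0183) and 0.28 (SE 0.06, adjusted p = 0.0326). Ppp1r1b missed the threshold without WT replicate 1 (0.0522), WT replicate 3 (0.0757) or KO replicate 3 (0.0908), and Drd1a when WT replicate 2 or 3 or any KO library but the second was left out (0.0663 to 0.153). Of 8 endothelial markers 7 were negative and 1 passed, Slco1c1, at -0.23 (SE 0.05, edgeR adjusted p = 0.0321), which held without WT replicate 1 or KO replicate 2 and was lost without any of the other 6 libraries (0.0844 to 0.13) or with the GC and length trends removed (0.0854). The endothelial sum was 222 to 241 CPM in WT and 198 to 213 CPM in KO libraries. Heat shock and handling genes summed to 1223 to 1430 CPM in WT and 1342 to 1524 CPM in KO libraries, with 7 of 8 positive and 0 past the threshold. Negative log2 fold changes numbered 6 of 8 for astrocytes, 7 of 8 for oligodendrocytes, 5 of 8 for microglia, 6 of 8 for cerebellum, 6 of 8 for choroid plexus and 1 of 5 for blood, and none of these markers passed. Only markers that passed the filter on low counts were read, which for blood were 5 of the 7 listed. The part of cell makeup in the members' result was not tested.

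**Figure D5:**
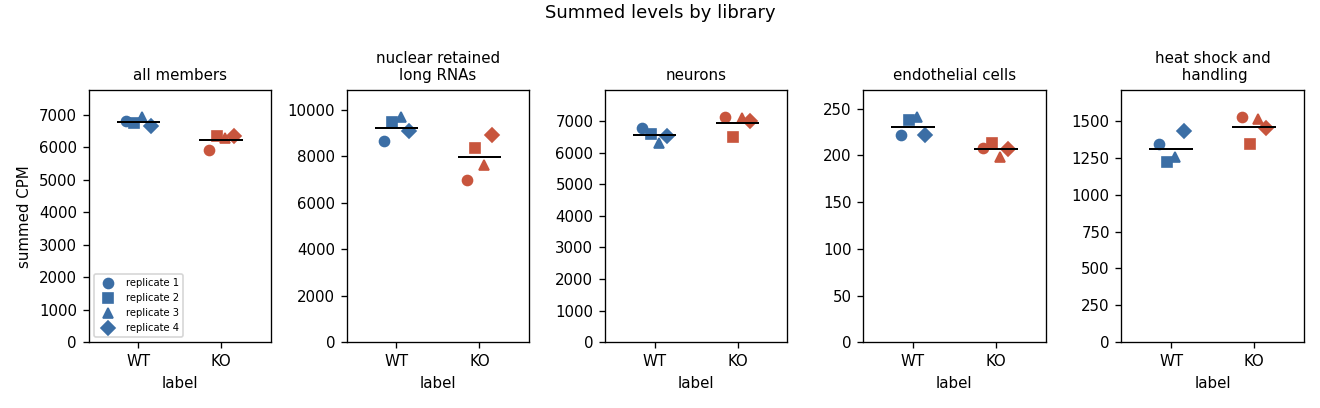
Summed CPM of all 66 members and of 4 other lists in each library (axes start at 0; marker shapes give replicate numbers, lines the group means). The members and the endothelial markers separate the groups, nuclear retained RNAs, neuron markers and heat shock genes overlap between them, and KO replicate 1 is the lowest library for the members and the nuclear RNAs.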

How the data were processed

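Polyadenylated RNA of 8 mouse brain libraries was measured. Per the labels' protocols, RNA was taken with Trizol and columns and made into stranded mRNA libraries. The authors deposited expected counts (estimated read counts per gene) for 17613 genes, not scaled between libraries, with 91.5% of values whole within 0.001. Named without role or order, per the submitters' processing notes, are GRCm38 (mm10), TopHat2 2.0.9 and edgeR. How reads were counted, and whether by strand, is not given in the sources used here.

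Counts were rounded, filtered with filterByExpr (15902 genes kept), scaled by TMM and compared between 4 KO-labelled and 4 WT libraries in edgeR 4.0.16 under R 4.3.3. The test was the robust quasi-likelihood F test on the group term, with no covariate, and p-values were adjusted by Benjamini-Hochberg over every tested gene (threshold 0.05). Fold changes are KO over WT on the log2 scale, with intervals of 95%. Totals of 11891350 to 19773921 counts set the counting error, and no pair of libraries within a group was as alike as sampling alone would make them (chi-square per degree of freedom 2.46 to 5.04). Alternatives were other scaling factors and filters, DESeq2 1.42.0, limma-voom 3.58.1, the replicate number as a block, GC and length trends removed (GC known for 98.6% of genes), and each library left out. Leaving out both libraries numbered 1 was added after the data were seen.

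Positions, transcript classes, lengths and GC content came from GENCODE M21 (GRCm38), where 17286 identifiers were found, and promoters from RefSeq on GRCm38.p6. The promoter entry of Rbm25 lay away from its GENCODE start and was not searched. The family members, role groups and comparison lists were chosen with earlier results of these data known. Named with values were Uhrf2, every classical SR protein, kinase, cyclin and SR-like partner, every other member past the threshold, the pair of lowest p in each other group, and in each list outside the rule the genes past the threshold or else the pair of lowest p. Other members named mark the end of a range, a shared locus or a duplicated entry, and cell markers are named where they passed.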

Additional observations from a re-analysis of the deposited data

Results flagged for a closer look

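In groups of 4 libraries, 92 groups were tested: Uhrf2 and 45 of the named genes, each in WT and KO. A library lay apart in 4 of them. Its gap to the nearest other library took up more of the group's range than Dixon's 95% critical value allows. Chance gives such a gap in about 1 in 20 groups. Uhrf2 measured 47.7 CPM in WT replicate 2, against 57.2 to 58.9 CPM in the other 3. Rbm25 measured 179 CPM in WT replicate 4, against 192 to 193 CPM in the others. Rbm5 measured 156 CPM in KO replicate 1, against 195 to 198 CPM in the others, and this library was the lowest for the summed family as well. Srsf10 measured 82.3 CPM in KO replicate 3, against 79.8 to 80.2 CPM in the others, a small gap within a narrow group.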

How the results depend on the processing

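The count of members called lower was 6 and stayed within 1.5 times of that with median-ratio or upper-quartile factors, with no filter or more than 1 CPM in at least 4 libraries, with limma-voom and with GC and length trends removed. It was 10 with DESeq2, 13 with the replicate block, 12 with the replicate block and GC and length trends removed together, 1 to 8 with 1 library left out, and 1 with both libraries numbered 1 left out. Calls among all genes numbered 228, and 495 with the replicate block, 512 with the block and the trends removed, and 110 to 324 with 1 library left out. Deviations of same-numbered libraries had correlations of 0.208, 0.0772, 0.0245 and 0.0673. Correlations between differently numbered libraries were not set beside them, so whether the numbers pair the libraries was not tested. In 18 alternatives 45 of the named genes were followed, giving 810 values. Members named only as the end of a range, a shared locus or a duplicated entry, and Rbm43 and Rbm18, were not among them. Of the 810, 675 kept their direction and side of the threshold, 65 lost the call and 35 gained it. Another 35 values, all uncalled and from 8 genes near 0 (Tra2a, Srrm3, Srsf7, Tra2b, Srsf10, Srpk2, Srrm4 and Srsf3), changed sign. No called value changed sign. The member median stayed between -0.10 and -0.05, and 0 members were called higher in any fit. Depth limits members such as Rbm47 and Rbm38, near 2 CPM, where the SE was 0.20 to 0.22. The cause of these changes was not tested.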
